A study of Mus musculus with 10 samples.

Results

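The CD3 complex and proximal T cell receptor (TCR) signalling genes described here are Cd3e, Cd3d, Cd3g, Cd247, Lck, Zap70, Lat, Lcp2 and Trat1. These 9 genes were chosen by symbol from the 45706 genes of the deposited table, and all 9 were found. The study sequenced RNA of T cells and of conventional dendritic cells of type 2 (cDC2s), which present antigen and bear SIRP alpha, the receptor of CD47. Mouse spleens of 2 genotypes were used, Cd47ΔT, a name that stands for loss of Cd47 from T cells, and Cd47f/f, with floxed alleles of Cd47. CD47 is a surface protein that restrains the uptake of cells by phagocytes, and the study's title sets the work in peripheral T cell survival and necroptosis. T cells gave 2 Cd47ΔT and 2 Cd47f/f libraries, and cDC2s gave 3 Cd47ΔT and 3 Cd47f/f libraries. The sources used here do not give the Cre line, the deleted exons, the way cells were isolated, or the strain and age of the mice. No label states that replicates were separate mice, so the p-values speak of spread between libraries, and that spread may be technical. T cell and cDC2 libraries were made with different kits, so cell type and kit cannot be told apart in any level set across them.

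The TCR recognises antigen but has no signalling tail of its own. It relies on the CD3 gamma, delta and epsilon chains and the CD247 (zeta) dimer, whose tyrosine motifs are phosphorylated by the kinase LCK when the receptor is engaged. The kinase ZAP-70 then docks on these motifs and phosphorylates the membrane adaptor LAT and the cytosolic adaptor SLP-76, encoded by Lcp2, which together gather phospholipase C gamma and exchange factors. TRAT1, also called TRIM, is a small transmembrane adaptor that associates with the TCR complex. Most of these genes are largely confined to T cells and related lymphocytes, whereas Lcp2 is used across blood lineages, including myeloid cells.

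The promoters of 5 of the genes are shown because they carry the contrasts described below. Cd3g, Cd3d and Cd3e sit together in 40.1 kb of chromosome 9, Trat1 was the member that changed with genotype, and Lcp2 was the member read strongly in both cell types. Each line gives the 250 bases before the transcription start annotated by RefSeq on GRCm38.p6, 5′ to 3′ on the strand of the gene. Capitals mark matches, on either strand, to letters bound by factor families that are known regulators of T cell genes. The letters searched for the ETS family, known for its role in lymphocytes, were CAGGAA. For the factors that bind E-boxes the search used the letters CACCTG in the same windows. RUNX factors were represented in this search by the letters TGTGGT alone. For the GATA family the search was made with the letters AGATAA and no other form. The TCF and LEF family was represented by the letters CTTTGA on both strands. No 2 marked matches overlap.
Cd3g, chr9:44980432-44980681, minus strand: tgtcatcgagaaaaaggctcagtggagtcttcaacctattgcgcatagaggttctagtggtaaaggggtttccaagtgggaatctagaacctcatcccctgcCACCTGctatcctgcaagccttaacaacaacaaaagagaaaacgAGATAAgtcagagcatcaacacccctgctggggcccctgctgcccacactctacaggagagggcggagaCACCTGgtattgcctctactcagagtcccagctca
Cd3d, chr9:44981536-44981785, plus strand: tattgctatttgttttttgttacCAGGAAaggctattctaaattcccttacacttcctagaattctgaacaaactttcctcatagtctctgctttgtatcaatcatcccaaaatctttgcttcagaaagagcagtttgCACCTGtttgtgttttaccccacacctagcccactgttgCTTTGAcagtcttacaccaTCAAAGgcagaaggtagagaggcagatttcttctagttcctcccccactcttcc
Cd3e, chr9:45009612-45009861, minus strand: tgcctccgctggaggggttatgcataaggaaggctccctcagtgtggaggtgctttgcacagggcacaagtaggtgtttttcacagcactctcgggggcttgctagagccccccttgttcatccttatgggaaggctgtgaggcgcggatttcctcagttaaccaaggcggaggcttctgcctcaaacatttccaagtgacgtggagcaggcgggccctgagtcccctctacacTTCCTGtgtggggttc
Trat1, chr16:48772063-48772312, minus strand: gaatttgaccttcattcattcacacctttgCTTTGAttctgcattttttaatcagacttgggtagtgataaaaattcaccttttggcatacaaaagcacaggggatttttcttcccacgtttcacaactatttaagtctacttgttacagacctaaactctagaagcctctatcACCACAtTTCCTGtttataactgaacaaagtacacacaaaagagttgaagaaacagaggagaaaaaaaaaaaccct
Lcp2, chr11:34046678-34046927, plus strand: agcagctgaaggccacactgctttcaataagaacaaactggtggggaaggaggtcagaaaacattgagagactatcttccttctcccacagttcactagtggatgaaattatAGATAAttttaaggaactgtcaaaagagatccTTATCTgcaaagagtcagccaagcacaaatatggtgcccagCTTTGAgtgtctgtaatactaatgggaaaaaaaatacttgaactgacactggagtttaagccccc

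Cd3g and Cd3d are transcribed away from each other from starts 1355 bases apart, and Cd3d ends 11401 bases from Cd3e. Their promoters shared some letters and differed in others. Cd3g has E-box letters that begin 148 and 35 bases before its start and GATA letters at 104, Cd3d has ETS letters at 227, E-box letters at 112 and TCF letters at 73 and 54, and Cd3e has ETS letters at 16. The Trat1 window holds TCF letters at 220 bases and RUNX and ETS letters side by side at 76 and 69 bases. The Lcp2 window holds GATA letters at 138 and 106 bases and TCF letters at 65, with no ETS, E-box or RUNX letters. RefSeq annotates 12 promoters for the 9 members, and all 9 matched. The ETS letters were found in 8 of the 12 member promoters (7 members) and in 25.7% of all 32851 promoters searched. E-box letters were found in 6 of the 12 (5 members) and in 17.2% of all promoters, TCF letters in 4 of the 12 (4 members) and in 13.8%. RUNX letters were found in 3 of the 12 (3 members) and in 14.0% of all promoters, GATA letters in 2 of the 12 (2 members) and in 9.99%. A match is a string of letters in this window and not a measured binding site.

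The values are TPM, transcript abundances per length that sum to the same total in every library and keep no record of depth, so depth is unknown. A T cell library had 11514 to 12594 genes at 1 TPM or more, and a cDC2 library had 11852 to 12146. Cd47 itself had 40.4 and 51.7 TPM in T cells of Cd47ΔT mice, against 138 and 233 TPM in those of Cd47f/f mice, and its log2 fold change was -1.95 ± 0.26 (SE, adjusted p = 0.0112 by limma). T cell markers (6 genes) summed to 4454 and 4054 TPM in Cd47ΔT T cells, against 4597 and 4549 TPM in Cd47f/f T cells, and by limma none of the 6 passed the test, with 1 lower at an unadjusted p under 0.05. Markers of other cells were more abundant in the Cd47ΔT T cell libraries. Myeloid and dendritic cell markers (12 genes) summed to 307 and 538 TPM in Cd47ΔT against 34.5 and 66.5 TPM in Cd47f/f T cells, with 9 of 10 tested genes higher. NK cell markers (7 genes) summed to 119.7 and 167.8 TPM against 34.2 and 53.1 TPM, with 6 of 7 higher, and B cell markers (8 genes) to 55.0 and 125 TPM against 15.1 and 17.1 TPM, with 5 of 6 higher. Sums for erythroid markers (7 genes) were 89.7 and 178 TPM against 38.6 and 27.9 TPM, with 4 of 5 higher, for γδ T cell markers (6 genes) 44.7 and 55.5 TPM against 19.8 and 20.9 TPM, with 3 of 4 higher, and for neutrophil markers (7 genes) 37.0 and 110 TPM against 4.78 and 10.8 TPM, with 3 of 5 higher. The defining neutrophil gene Ly6g was at 0 in all 4 T cell libraries, and no other marker was. cDC2 markers (8 genes, most of them also in the myeloid list) summed to 44.8 and 67.5 TPM against 9.85 and 13.0 TPM, with 5 of 6 higher. The part of these cells in the member values below was not tested. In bulk samples, fewer cells of a type and less RNA per cell cannot be told apart.

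In T cells, 8 of the 9 genes did not pass the test between genotypes, and 1, Trat1, fell. The test was limma on log2(TPM + 1), with Benjamini-Hochberg adjustment over all genes tested and calls at an adjusted p under 0.05. All 9 members passed the filter of 1 TPM in at least 2 T cell libraries. Of the 12453 genes tested, 8.5% were called higher in Cd47ΔT and 0.875% lower, so 0 of 9 members higher and 1 of 9 lower is the count to be read against these shares. At an unadjusted p under 0.05 the counts were 1 higher, Cd3e, and 1 lower, Trat1, where 21.6% of all genes tested had such a p in either direction. The median log2 fold change of the 9 members was 0.03, against 0.10 over all genes tested. The member median had either sign depending on the scaling, at -0.15 with quantile and -0.13 with median-of-ratios scaling, under which the median of all genes moved to -0.08 and -0.04. Genotypes did not overlap for 4 of the 9 members, 2 higher and 2 lower in Cd47ΔT. Of all genes tested, 48.9% did not overlap in one direction or the other. The plot of member TPM by T cell library shows these levels side by side.

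**Figure D1:**
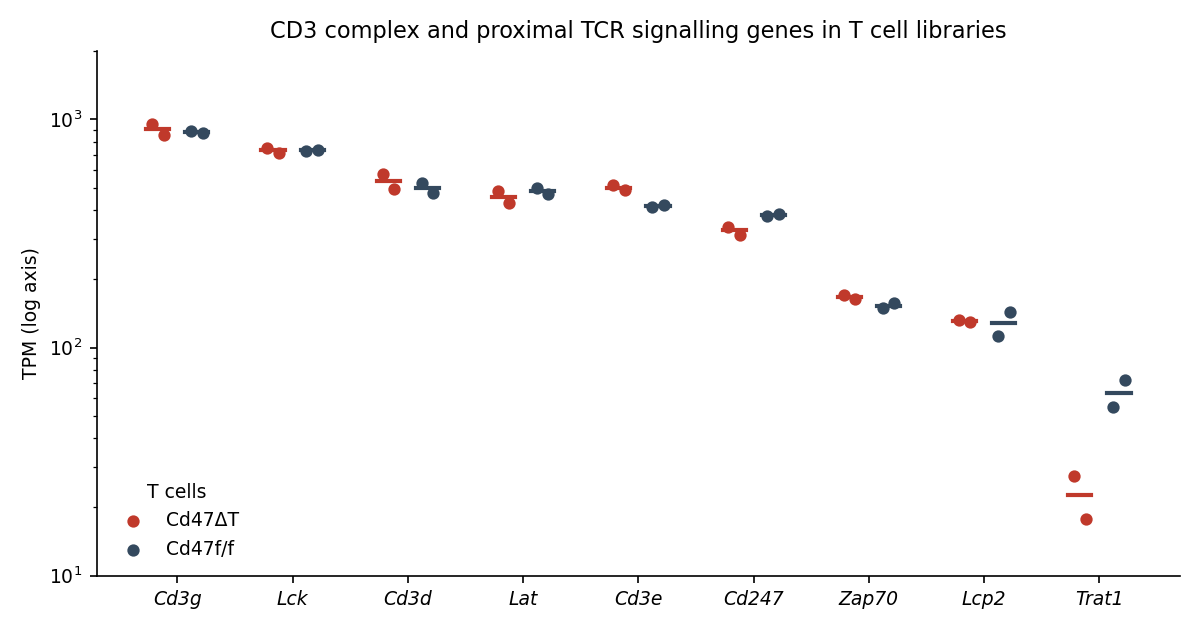
TPM (log axis) of the 9 members in each T cell library, Cd47ΔT in red and Cd47f/f in dark blue, with points for libraries and lines for the mean of 2. Trat1 is the lowest member and the only one whose genotypes are far apart, at 17.6 to 27.3 TPM in Cd47ΔT against 54.7 to 72.0 TPM in Cd47f/f.

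The order of the 9 genes by TPM was nearly the same in all 4 T cell libraries. Cd3g was the highest, followed by Lck and Cd3d. Cd3e and Lat took the 2 next places, Cd3e above Lat in both Cd47ΔT libraries and Lat above Cd3e in both Cd47f/f libraries. Cd247, Zap70, Lcp2 and Trat1 followed in every library. In the Cd47ΔT libraries the levels of Cd3d and Cd3e overlapped, so the order of these 2 is there within the spread between libraries, while both Lat values lay below both of each. In the Cd47f/f libraries the levels of Cd3d and Lat overlapped.

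Of the CD3 chains, Cd3e had the highest and Cd247 the lowest fold change, and none of the 4 passed the test. Cd3e (chromosome 9, 44998740 to 45009627, minus strand), which encodes the chain that pairs with both gamma and delta, was at 514 and 492 TPM in Cd47ΔT T cells against 414 and 423 TPM in Cd47f/f T cells. Both Cd47ΔT libraries lay above both Cd47f/f libraries. The log2 fold change of Cd3e was 0.26 ± 0.09 (SE, adjusted p = 0.16 by limma), with an unadjusted 95% interval of 1.03-fold to 1.40-fold on the TPM + 1 scale. Cd3e passed the threshold under 1 of 16 alternatives, a scaling that sets the mean log2 of 12 T cell genes equal in all libraries (0.44 on the log2 scale, with limma's adjusted p = 0.041).

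Cd247 (chromosome 1, 165788681 to 165877277, plus strand), which encodes the zeta chain, was at 339 and 313 TPM in Cd47ΔT T cells against 378 and 385 TPM in Cd47f/f T cells. Here both Cd47ΔT libraries lay below both Cd47f/f libraries. The fold change of Cd247 was -0.23 ± 0.10 on the log2 scale (SE, adjusted p = 0.258 by limma), with an unadjusted 95% interval of 0.724-fold to 1.01-fold. The sign was negative under all 16 alternatives, from -0.38 to -0.05, and none passed the threshold. NK cells are also known to use CD247, and NK cell markers were higher in the same Cd47ΔT libraries. Their part in the Cd247 level was not tested.

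Cd3d (chromosome 9, 44981786 to 44987339, plus strand), which encodes the delta chain, was at 574 and 496 TPM in Cd47ΔT T cells against 528 and 474 TPM in Cd47f/f T cells. Cd3g (chromosome 9, 44969572 to 44980431, minus strand), which encodes the gamma chain, was at 957 and 851 TPM in Cd47ΔT T cells against 894 and 875 TPM in Cd47f/f T cells. The genotypes overlapped for both genes. The log2 fold change was 0.09 ± 0.12 for Cd3d (adjusted p = 0.77 by limma), with an unadjusted 95% interval of 0.878-fold to 1.30-fold. For Cd3g it was 0.03 ± 0.10 (adjusted p = 0.931 by limma), with an interval of 0.865-fold to 1.2-fold. Both turned negative with quantile and with median-of-ratios scaling.

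Taking the 4 CD3 genes as a whole, their summed TPM was 2384 and 2151 in Cd47ΔT T cells against 2214 and 2156 in Cd47f/f T cells, and the genotypes overlapped at the lower end. Within that sum Cd3e made up 21.6% and 22.9% in Cd47ΔT against 18.7% and 19.6% in Cd47f/f T cells. Cd247 made up 14.2% and 14.5% in Cd47ΔT against 17.1% and 17.8% in Cd47f/f T cells. Cd3g stayed between 39.6% and 40.6% and Cd3d between 22.0% and 24.1% across all 4 libraries. The epsilon and zeta shares thus did not overlap between genotypes in these libraries. The 4 shares add up to the whole, so a rise in any share lowers the rest, and they are not separate observations. By TPM, 48.9% of all genes tested in T cells did not overlap in one direction or the other. The gamma share did not overlap either, by a smaller margin, and the delta share overlapped. No test was made on shares, and neither Cd3e nor Cd247 passed the test on levels.

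The kinases showed no difference past the threshold. Lck (chromosome 4, 129548344 to 129573641, minus strand), the kinase that starts the cascade, was at 752 and 715 TPM in Cd47ΔT T cells against 727 and 736 TPM in Cd47f/f T cells. The Cd47f/f values lay between the Cd47ΔT values. Lck had a log2 fold change of 0.00466 ± 0.09 (SE, adjusted p = 0.987 by limma), with an unadjusted 95% interval of 0.863-fold to 1.17-fold, and its sign turned with the scaling. Zap70 (chromosome 1, 36761798 to 36782818, plus strand), the kinase that docks on phosphorylated CD3 and zeta, was at 169 and 163 TPM in Cd47ΔT T cells against 149 and 156 TPM in Cd47f/f T cells. Both Cd47ΔT libraries lay above both Cd47f/f libraries by a small margin. Its log2 fold change was 0.12 ± 0.11 (SE, adjusted p = 0.644 by limma), with an interval of 0.910-fold to 1.30-fold, and it turned negative with median-of-ratios scaling. NK cells are known to use ZAP-70 as well.

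Of the adaptors, Lat and Lcp2 overlapped between genotypes and Trat1 fell. Lat (chromosome 7, 126363824 to 126369570, minus strand), the membrane scaffold phosphorylated by ZAP-70, was at 486 and 432 TPM in Cd47ΔT T cells against 501 and 470.2 TPM in Cd47f/f T cells. Its log2 fold change was -0.08 ± 0.11 (SE, adjusted p = 0.78 by limma), with an interval of 0.791-fold to 1.13-fold, and turned positive with the scaling to T cell genes. Lcp2 (chromosome 11, 34046920 to 34092295, plus strand), which encodes SLP-76, was at 132 and 129 TPM in Cd47ΔT T cells against 112 and 143 TPM in Cd47f/f T cells. Its log2 fold change was 0.04 ± 0.14 (SE, adjusted p = 0.929 by limma), with an interval of 0.810-fold to 1.31-fold, and turned negative with quantile and median-of-ratios scaling.

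Trat1 (ENSMUSG00000030775, chromosome 16, 48730774 to 48772021, minus strand), the adaptor that associates with the TCR complex, was at 27.3 and 17.6 TPM in Cd47ΔT T cells against 54.7 and 72.0 TPM in Cd47f/f T cells. The highest Cd47ΔT value was below the lowest Cd47f/f value. It averaged 22.5 ± 6.83 TPM in Cd47ΔT and 63.4 ± 12.2 TPM in Cd47f/f T cells (SD, n = 2 each). Its log2 fold change was -1.47 ± 0.24 (SE, adjusted p = 0.0184 by limma), a fold of 0.360 with an unadjusted 95% interval of 0.239 to 0.542. Trat1 was negative under all 16 alternatives, from -1.77 to -1.17, and passed the threshold in 14 of them. It missed the threshold with no filter on low values (adjusted p = 0.0984 by limma) and without Cd47f/f library 2 (-1.28 on the log2 scale, with limma's adjusted p = 0.0543).

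The T cell preparations also differed in their coreceptor genes, which were picked after their values were seen. Cd4, the coreceptor of helper T cells, was at 108 and 60.2 TPM in Cd47ΔT T cells against 170.1 and 189.7 TPM in Cd47f/f T cells (log2 fold change -1.15 ± 0.26, adjusted p = 0.0481 by limma). Cd8a, the coreceptor of cytotoxic T cells, was at 499 and 514 TPM in Cd47ΔT T cells against 331 and 380.4 TPM in Cd47f/f T cells (log2 fold change 0.51 ± 0.11, adjusted p = 0.0367 by limma). Cd8b1, its partner chain, was at 1169 and 1209 TPM in Cd47ΔT T cells against 811 and 878 TPM in Cd47f/f T cells (log2 fold change 0.49 ± 0.09, adjusted p = 0.0259 by limma). These calls held in 6, 9 and 10 of the 16 alternatives for Cd4, Cd8a and Cd8b1. Cd4 was also lower in cDC2s, at 90.8, 86.9 and 77.5 TPM in Cd47ΔT against 150, 161 and 187 TPM in Cd47f/f. Its log2 fold change in cDC2s was -0.96 ± 0.12 (SE, adjusted p = 0.0203 by limma). The T cell effect less the cDC2 effect was -0.19 ± 0.29 for Cd4 in a joint limma fit (adjusted p = 0.855). The Cd4 fall was thus not confined to the T cell libraries. In T cells the coreceptor levels moved with the Trat1, Cd3e and Cd247 values, and their part in them was not tested.

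A ratio of 2 genes within a library does not move when the whole library is multiplied by a factor, though quantile scaling can move it. Relative to Cd3e in the same library, Cd247 stood at 0.660 and 0.636 in Cd47ΔT T cells against 0.914 and 0.909 in Cd47f/f T cells, a log2 difference of -0.49. Lat stood at 0.946 and 0.879 of Cd3e in Cd47ΔT T cells against 1.21 and 1.11 in Cd47f/f T cells, and Lck at 1.46 and 1.45 against 1.75 and 1.74. Trat1 stood at 0.0531 and 0.0359 of Cd3e in Cd47ΔT T cells against 0.132 and 0.170 in Cd47f/f T cells, a log2 difference of -1.78. All 8 ratios had a lower mean in Cd47ΔT libraries, and all 8 share Cd3e as denominator. Cd3e had the highest log2 fold change of the 9 members, at 0.26, so this common direction follows from the choice of denominator. The exact permutation test gave p = 0.333 (two-sided, n = 2 each) for each of the 8 ratios, and this is the smallest p that 2 against 2 libraries allow. A ratio cannot show which of its 2 genes differed.

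**Figure D2:**
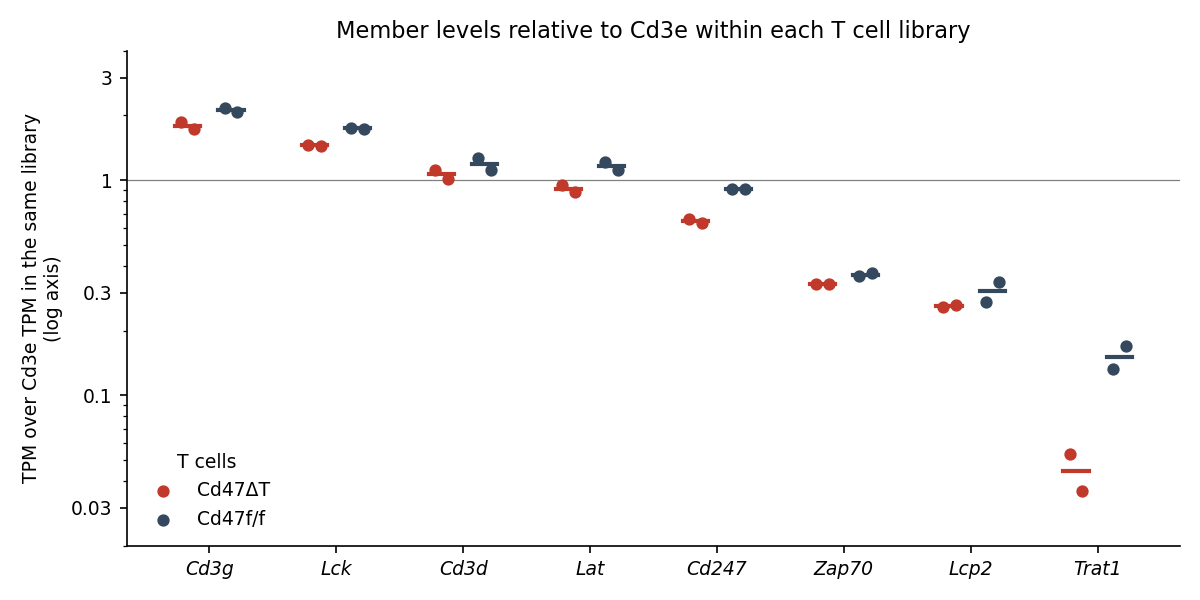
TPM of 8 members over Cd3e TPM in the same T cell library (log axis), Cd47ΔT in red left of Cd47f/f in dark blue, with points for libraries and lines for the mean of 2. Cd247 lies at 0.636 to 0.660 in Cd47ΔT against 0.909 to 0.914 in Cd47f/f, and Trat1 shows the widest gap.

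Other genes of the receptor and its pathway were taken from 5 lists. Of their 53 genes, all tested in T cells, 1 was higher in Cd47ΔT and none was lower, against 8.5% and 0.875% of all genes tested. The list counts at an unadjusted p under 0.05 given below are to be read against 21.6% of all genes tested. The constant regions of the αβ TCR chains, Trac, Trbc1 and Trbc2, had a median log2 fold change of -0.17, with 0 of 3 called by limma and 0 at an unadjusted p under 0.05. Trac was at 1169 and 1037 TPM in Cd47ΔT T cells against 1224 and 1322 TPM in Cd47f/f T cells (log2 fold change -0.21 ± 0.10, adjusted p = 0.321 by limma). Trbc1 was at 1081 and 980.4 TPM in Cd47ΔT T cells against 1204 and 1112 TPM in Cd47f/f T cells, and its log2 fold change was -0.17 ± 0.10 (adjusted p = 0.425 by limma). The genotypes did not overlap for either gene, with Cd47ΔT below Cd47f/f T cells in both. They overlapped for Trbc2, at 2381 and 2188 TPM in Cd47ΔT against 2485 and 2264 TPM in Cd47f/f T cells. The log2 fold change of Trbc2 was -0.06 ± 0.10 (adjusted p = 0.85 by limma). Of all genes tested, 48.9% did not overlap in one direction or the other.

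None of the 5 other kinases near the receptor was called by limma, 0 had an unadjusted p under 0.05, and their median was 0.05. The count of kinases called moved in 4 of 16 alternatives, among them median-of-ratios scaling and the replicate block, each with 1 called. Fyn, the Src family relative of Lck, was at 224 and 214 TPM in Cd47ΔT T cells against 165 and 212 TPM in Cd47f/f T cells (log2 fold change 0.22 ± 0.14, adjusted p = 0.481 by limma). Both Cd47ΔT libraries lay above both Cd47f/f libraries, the nearest pair by a small margin, where 48.9% of all genes tested did not overlap.

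Of the 15 other adaptors and exchange factors, 1 rose and 14 did not pass, with a median of -0.03. At an unadjusted p under 0.05 by limma, 3 of them were higher and 1 was lower in Cd47ΔT. The adaptors called numbered 0 without Cd47ΔT library 2, 2 and 3 without Cd47f/f library 1 and 2, and 0 to 3 over all alternatives. The adaptor that rose was Sh3bp2, an adaptor known to bind ZAP-70, LAT and phospholipase C gamma, and also used in myeloid and B cells. It was at 12.6 and 13.6 TPM in Cd47ΔT T cells against 6.62 and 7.11 TPM in Cd47f/f T cells, without overlap. Its log2 fold change was 0.84 ± 0.19 (SE, adjusted p = 0.0428 by limma), and it passed in 11 of 16 alternatives, with an adjusted p of up to 0.411. Levels of Sh3bp2 in cDC2 libraries, made with another kit, were 49.6, 52.1 and 49.4 TPM in Cd47ΔT against 76.2, 66.4 and 56.7 TPM in Cd47f/f cDC2s, above those of T cells. Myeloid and dendritic cell markers were higher in the same Cd47ΔT T cell libraries, and their part in the Sh3bp2 level was not tested.

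None of 11 effectors downstream of LAT was called by limma, 1 was lower at an unadjusted p under 0.05, and their median was -0.11. The count of effectors called moved in 3 of 16 alternatives. Rasgrp1, the exchange factor that links diacylglycerol to Ras, was at 94.3 and 96.6 TPM in Cd47ΔT T cells against 109 and 158 TPM in Cd47f/f T cells (log2 fold change -0.46 ± 0.18, adjusted p = 0.219 by limma). Prkcq, the protein kinase C theta of T cells, was at 149 and 143 TPM in Cd47ΔT T cells against 159.9 and 193 TPM in Cd47f/f T cells (log2 fold change -0.27 ± 0.13, adjusted p = 0.306 by limma). Both had lower values in every Cd47ΔT library, without passing the test. They were named for the smallest p of their list, and 48.9% of all genes tested did not overlap in one direction or the other.

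None of 19 restraints on receptor signalling was called by limma, 3 were higher and 1 was lower at an unadjusted p under 0.05, and their median was 0.13. The count called became 5 without Cd47f/f library 2, 5 with the replicate block and 4 with T cell gene scaling, and stood at 0 or 1 under the other alternatives. Dgka, the kinase that removes diacylglycerol, was at 329.8 and 326 TPM in Cd47ΔT T cells against 412 and 502 TPM in Cd47f/f T cells (log2 fold change -0.47 ± 0.12, adjusted p = 0.0682 by limma). Lax1, a membrane adaptor related to LAT that dampens lymphocyte signalling, was at 92.0 and 93.9 TPM in Cd47ΔT T cells against 54.8 and 70.1 TPM in Cd47f/f T cells (log2 fold change 0.58 ± 0.15, adjusted p = 0.0727 by limma). Neither gene overlapped between genotypes, and each passed in some alternatives, Dgka in 5 and Lax1 in 3 of 16. Such a lack of overlap was found for 48.9% of all genes tested, and Dgka and Lax1 were named for the smallest p of their list. The plot of log2 fold changes by list shows that Trat1 lies below every other gene of these lists. In cDC2s none of the 3 kinases, 12 adaptors, 10 effectors and 14 restraints tested was called by limma. At an unadjusted p under 0.05, 1 kinase and 1 adaptor were higher there, and 4 adaptors, 5 effectors and 2 restraints were lower, where 13.4% of all genes tested in cDC2s had such a p in either direction.

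**Figure D3:**
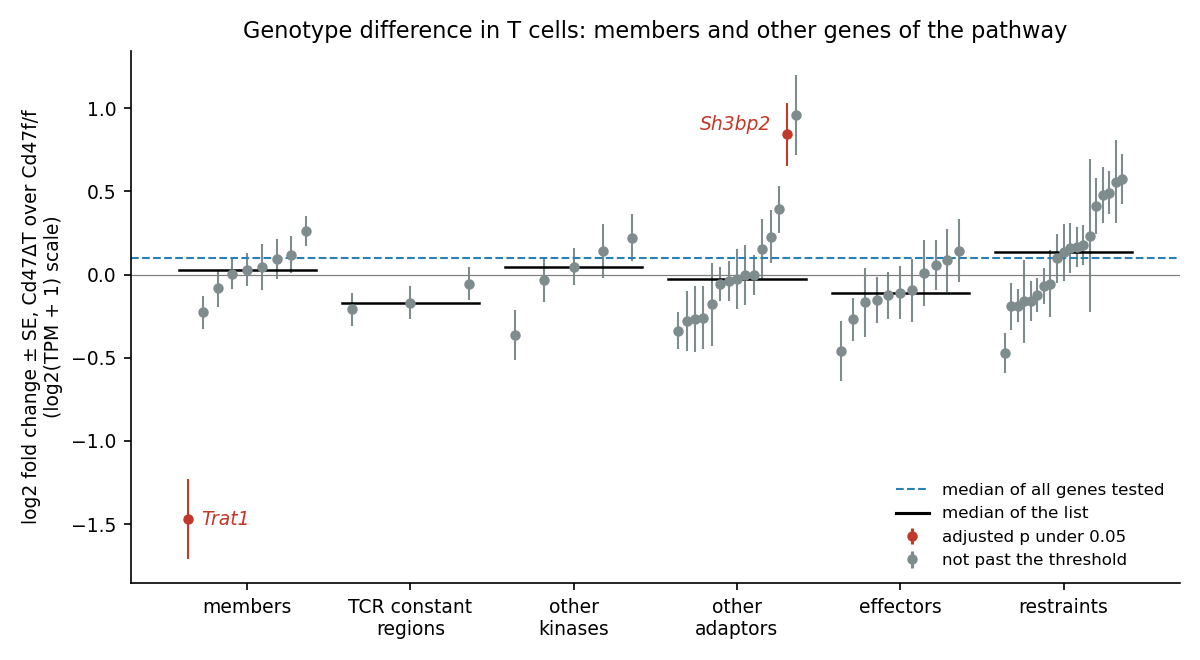
Log2 fold change in T cells, Cd47ΔT over Cd47f/f, from log2(TPM + 1) values, with SE bars, for the members and 5 lists of the pathway, ordered within each list. Red points, Trat1 and Sh3bp2, passed the threshold of 0.05; black lines are list medians and the dashed line is the median of all genes tested, 0.10.

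The cDC2 libraries show how much of each member was read in a cell type that should lack most of them. Leaving Lcp2 aside, the 8 other members together summed to 1.31, 6.88 and 2.12 TPM in the Cd47ΔT cDC2 libraries and to 2.06, 1.43 and 3.47 TPM in the Cd47f/f cDC2 libraries. That is 0.0361%, 0.189% and 0.0583% of the mean T cell sum in Cd47ΔT and 0.0567%, 0.0394% and 0.0955% in Cd47f/f cDC2s. The genotypes overlapped. Of the 48 values behind these sums, 29 were 0 and 5 were at 1 TPM or more. Trat1 and Cd3g were at 0 in all 6 cDC2 libraries.

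Those sums rested on few genes. Lck was at 0, 5.04 and 0.41 TPM in Cd47ΔT cDC2s against 0.07, 0.36 and 0 TPM in Cd47f/f cDC2s, so Cd47ΔT library 2 alone held most of it. In that library Trac stood at 4.03 TPM and Cd2, a T and NK cell adhesion receptor, at 1.2 TPM, the highest of the 6 cDC2 libraries for both, while Cd3e, Cd3d and Cd3g were at 0. Cd247 was the member other than Lcp2 with no 0, at 0.33, 1.64 and 1.12 TPM in Cd47ΔT against 0.09, 0.39 and 3.47 TPM in Cd47f/f cDC2s. Zap70 was read in 1 cDC2 library, at 1.79 TPM in Cd47f/f library 1. Cd3e reached 0.83 TPM, Lat 0.38 TPM and Cd3d 0.15 TPM at most.

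Other T cell genes were also read at low shares. The sum of 10 genes (Trac, Trbc1, Trbc2, Cd2, Cd6, Cd28, Bcl11b, Thy1, Skap1 and Themis) was 0.034%, 0.1% and 0.0154% of the T cell level in Cd47ΔT cDC2s against 0.0366%, 0.0381% and 0.0104% in Cd47f/f cDC2s. Trbc2, Bcl11b, Skap1 and Themis were at 0 in all 6. Cd5, a surface receptor that a portion of cDC2s is known to carry, was set apart because it was at 21.8, 11.7 and 17.4 TPM in Cd47ΔT against 14.5, 15.7 and 19.6 TPM in Cd47f/f cDC2s. cDC2 markers (8 genes) summed to 1111, 1211 and 1184 TPM in Cd47ΔT against 1437, 1354 and 1495 TPM in Cd47f/f cDC2s. Markers of the labelled cell type were thus read in all 6, at lower sums in Cd47ΔT. Of the 8 genes, limma called 1 lower in Cd47ΔT and 0 higher, against 0.381% lower and 0.249% higher of all genes tested. At an unadjusted p under 0.05, 4 were lower and 0 higher, where 13.4% of all genes had such a p in either direction.

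**Figure D4:**
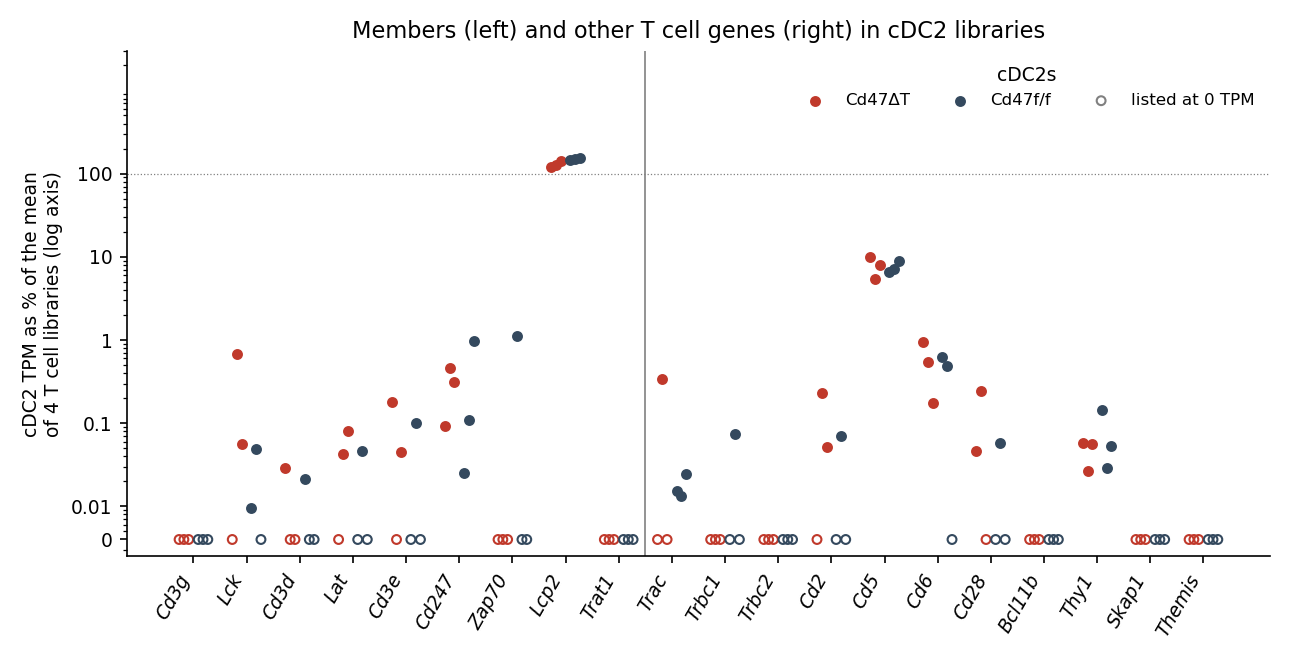
TPM in each cDC2 library as a percentage of the mean of the 4 T cell libraries (log axis), for the 9 members left of the line and 11 other T cell genes right of it, Cd47ΔT in red and Cd47f/f in dark blue. Open circles are values listed at 0. Lcp2 lies above 100%, Cd5 at 5.37% or more in each library, and most other values lie at 0 or under 1%.

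Lcp2 was the exception among the members in cDC2s. It was at 155, 163 and 185 TPM in Cd47ΔT cDC2s against 189.8, 195 and 199 TPM in Cd47f/f cDC2s. Over all libraries it ran from 155 to 199 TPM in cDC2s against 112 to 143 TPM in T cells, a ratio of 1.40 between the means, across different library kits. SLP-76 is a known component of Fc receptor and integrin signalling in myeloid cells. All 3 Cd47ΔT cDC2 libraries lay below all 3 Cd47f/f libraries, as did 13.5% of all genes tested in cDC2s. The log2 fold change was -0.22 ± 0.10 (SE, adjusted p = 0.375 by limma), with an unadjusted 95% interval of 0.736-fold to 1.0-fold. Cd47f/f library 3, which had the fewest genes above 0 (14172, against 14578 to 15386 in the other 5), left it at -0.20 when taken out.

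Of the members, Lcp2 and Cd247 passed the filter of 1 TPM in at least 3 cDC2 libraries, so these 2 of 9 were tested. Neither was called by limma or had an unadjusted p under 0.05, where 0.249% of 12058 genes were called higher and 0.381% lower in Cd47ΔT cDC2s. Cd247 had a log2 fold change of 0.05 ± 0.57 (SE, adjusted p = 0.984 by limma), and it ran from -0.35 without Cd47f/f library 1 to 0.67 without Cd47f/f library 3. The genotype effect in T cells minus that in cDC2s was 0.26 ± 0.18 for Lcp2 (adjusted p = 0.585) and -0.27 ± 0.68 for Cd247 (adjusted p = 0.919), by limma's interaction test over 10650 genes. No difference between the cell types was thus detected for either gene. Trat1 and the 6 other members could not be tested for it.

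Trat1 shares chromosome 16 with the targeted gene. Its annotated 5′ end lies 1029 kb from that of Cd47. The deposited table holds 30 annotated genes whose start lies within 2 Mb of the Cd47 start, of which 7 besides Cd47 were tested in T cells. Trat1 was the 1 lower gene, and 2 were higher, with a median log2 fold change of 0.32 over the 7, against 0.875% lower, 8.5% higher and a median of 0.10 over all genes tested in T cells. Cip2a, an inhibitor of protein phosphatase 2A, was at 8.81 and 8.59 TPM in Cd47ΔT T cells against 2.98 and 3.17 TPM in Cd47f/f T cells (log2 fold change 1.25 ± 0.20, adjusted p = 0.0172 by limma). Gm15518, annotated as antisense RNA, was at 7.76 and 7.79 TPM in Cd47ΔT T cells against 1.73 and 0.21 TPM in Cd47f/f T cells (log2 fold change 2.27 ± 0.39, adjusted p = 0.0212 by limma). Strand handling in the counting is unknown from the sources used here, so reads of an antisense gene and its partner may be mixed. In cDC2s, 6 genes of the window besides Cd47 were tested and none was called by limma, with 1, Ift57, at an unadjusted p under 0.05 and a median of 0.12. In T cells, Ift57 narrowly missed the threshold, at 22.8 and 22.3 TPM in Cd47ΔT against 13.0 and 7.79 TPM in Cd47f/f. Its log2 fold change in T cells was 1.08 ± 0.25 (SE, adjusted p = 0.0503 by limma), against 0.33 ± 0.14 in cDC2s (adjusted p = 0.368 by limma).

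**Figure D5:**
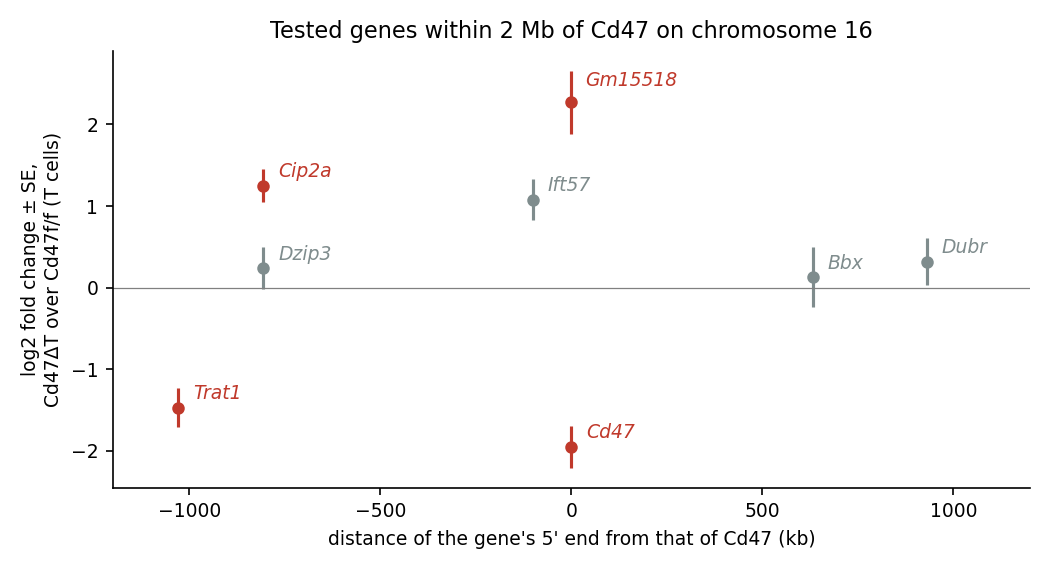
Log2 fold change in T cells, Cd47ΔT over Cd47f/f, with SE bars, against the distance of each tested gene's 5′ end from that of Cd47 in kb, for genes within 2 Mb. Red points passed the threshold of 0.05; Trat1 at 1029 kb upstream and Cd47 at 0 are the lower ones, and Cip2a and Gm15518 the higher ones.

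Genes with the profile most like that of Trat1 over the 10 libraries also differed between the T cell genotypes. Likeness was the Euclidean distance between centred log2(TPM + 1) profiles, among 7488 protein-coding genes that averaged 10 TPM or more in T cells. Since the profiles include the genotype groups, a like profile must show a like difference, and the values are a description. Gm14085 (distance 0.70) was at 21.8 and 21.8 TPM in Cd47ΔT against 50.4 and 51.1 TPM in Cd47f/f T cells. Trib2, a pseudokinase (distance 0.88), was at 33.2 and 33.8 TPM in Cd47ΔT against 76.8 and 82.4 TPM in Cd47f/f T cells. Slc16a5, a member of the monocarboxylate transporter family (distance 1.01), was at 34.9 and 34.5 TPM in Cd47ΔT against 57.6 and 55.5 TPM in Cd47f/f T cells. All 3 were at or under 0.21 TPM in every cDC2 library, as Trat1 was at 0.

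For Cd3e the nearest profiles were Skap1 (distance 0.91), Dapl1 (0.96) and Cd3d (0.99). Skap1, a T cell adaptor of integrin activation, was at 337 and 323 TPM in Cd47ΔT against 327 and 360.1 TPM in Cd47f/f T cells. Dapl1, a gene known from naive T cells, was at 314 and 339 TPM in Cd47ΔT against 325 and 265 TPM in Cd47f/f T cells. Both were at 0 in all 6 cDC2 libraries, against at most 0.83 TPM for Cd3e.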

How the data were processed

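RNA of T cells (4 libraries) and cDC2s (6 libraries) was extracted with RNeasy mini and RNeasy micro kits and made into libraries with TruSeq stranded mRNA and SMART-seq stranded kits, per the labels' protocols. The authors deposited TPM for 45706 genes, and the tools were STAR, RSEM and DESeq2 with the build GRCm38, per the submitters' processing notes. The sources used here give no versions, annotation or strand setting. Symbols and positions came from GENCODE M21 (45143 identifiers, 98.8%, matched) and promoters from RefSeq (GRCm38.p6).

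Each cell type was fitted alone with limma 3.58.1 (variance trend) in R 4.3.3 on log2(TPM + 1), a scale that understates changes of low genes, with a genotype term, over genes that reached 1 TPM in 2 T cell or 3 cDC2 libraries. Benjamini-Hochberg adjustment ran over all genes tested, and calls needed an adjusted p under 0.05. The difference between cell types was the interaction term of a joint fit over genes passing both filters. TPM keep no depth, so no counting interval is given. The steps were run on simulated data with known changes and with noise drawn from the fit's own variance model. That run did not include RNA of other cells, so it cannot speak to their part in these libraries. Members, lists and the rule for named genes were chosen with earlier results of these data known. Named were the 9 members, Cd47, every called gene of a pathway list or else the 2 of smallest p, the 3 nearest profiles of Cd3e and Trat1, and called genes within 2 Mb of Cd47. A gene that the rule names is not reported here. Settings tried besides these were pseudocounts of 0.1 and 5, no filter or one of 5 TPM, 4 scalings, 2 settings of the variance trend, a joint fit of both cell types, a block for replicate number, and leaving out each library. Other tables and figures used Python 3.11.15, pandas 2.3.3, scipy 1.17.1 and matplotlib 3.10.9.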

Additional observations from a re-analysis of the deposited data

Results flagged for a closer look

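Of the members, the other pathway genes and Cd47, 42 could be tested for a difference of the genotype effect between cell types, and 2 passed by limma's interaction test, against 607 of all 10650 genes. Of these 2, Cd47 is the targeted gene, and its difference follows from the design. Cd47 differed by -1.94 on the log2 scale (SE 0.28, adjusted p = 0.00175), with a log2 fold change of -1.95 in T cells and -0.00220 in cDC2s. Sh3bp2 differed by 1.23 (SE 0.22, adjusted p = 0.00674), at 0.84 in T cells and -0.38 ± 0.13 in cDC2s (adjusted p = 0.253), and passed in all 20 alternatives of that test, with an adjusted p of up to 0.0498. Groups of 2 and 3 libraries are too small for a check of single libraries that stand apart.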

How the results depend on the processing

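TPM keep no depth, so it is unknown which low values counting error limits, and 2 libraries a group in T cells leave wide intervals. Trat1 missed the threshold with no filter (log2 fold change -1.47, adjusted p = 0.0984 by limma), which left 0 members called lower, and ran from -1.77 to -1.17 when single libraries were left out, with 0 to 1 members lower. Members called higher numbered 1 with T cell gene scaling. None was called in cDC2s in any of 17 alternatives. Signs turned below the threshold for Cd3d (-0.0484 with quantile, -0.0621 with median-of-ratios scaling, -0.0115 to 0.199 leaving out single libraries), Cd3g (-0.17, -0.13 and with protein-coding scaling -0.00783, -0.0552 to 0.114) and Lck (-0.148, -0.151, -0.0327, -0.0317 to 0.041). They also turned for Lcp2 (-0.0688, -0.111, -0.13 to 0.22), Zap70 (-0.0357 with median-of-ratios) and Lat (0.0947 with T cell gene scaling, -0.17 to 0.0021). Cd247 turned in cDC2s (-0.0338 with a pseudocount of 5, -0.35 to 0.67) and in the difference between cell types (-0.89 to 0.13), and could not be tested in cDC2s with a filter of 5 TPM. The T cell counts of 1058 higher and 109 lower genes became 14 and 1 with no filter, 672 and 325 with quantile, 946 and 264 with median-of-ratios and 1986 and 310 with the replicate block. Higher genes numbered 679 with a filter of 5 TPM and 2384 with T cell gene scaling. The share higher was 90.7%, 67.4% with quantile and 78.2% with median-of-ratios scaling. Without single libraries 585 to 1439 were higher (585 without Cd47f/f library 1) and 51 to 140 lower (51 and 57 without Cd47ΔT library 1 or 2). A lone library left in a T cell group was taken to have the spread of the other genotype. In cDC2s, 30 higher and 46 lower became 2 and 4 with no filter, 7 and 5 with no variance trend, 68 and 103 with 1 fit of all libraries, 3 and 1 with the replicate block, and 0 to 9 and 0 to 5 without single libraries, with 0 in both directions without Cd47ΔT library 1, Cd47ΔT library 3 or Cd47f/f library 1 (limma, 1277 to 1371 genes at an unadjusted p under 0.05). The share higher of 39.5% became 50%, 53.3% and 52.2% with quantile, median-of-ratios and protein-coding scaling. With no filter no gene within 2 Mb of Cd47 was called in T cells. Under all scalings the median of all T cell genes ran from -0.08 to 0.27. No label says that a replicate number marks a shared mouse or day. Deviations of same-numbered cDC2 libraries correlated at -0.0438, 0.0591 and 0.119. In T cells the value was 0.19 for both pairs, and 2 libraries a group cannot show whether the numbers pair them. The cause of these shifts was not tested.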
